A study of Mus musculus with 7 samples.

Results

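The genes described here encode the nucleosome remodeling and deacetylase complex, NuRD, with the class I histone deacetylases that it carries. The members were taken as a given list of 10 symbols, *Chd4*, *Mbd2*, *Mbd3*, *Mta1*, *Mta2*, *Mta3*, *Hdac1*, *Hdac2*, *Gatad2a* and *Gatad2b*, and each symbol matched a single Ensembl gene among the 29267 genes of the deposited tables. The rule used no measured value, although the list was chosen with earlier results of these data known. All 10 had reads in every library.

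NuRD joins an ATP-dependent nucleosome remodeler, CHD4, to histone deacetylases, HDAC1 and HDAC2, on a scaffold of MTA proteins. Its MBD subunit is either MBD2, which binds methylated CpG, or MBD3, which in mammals binds it poorly, and a given complex carries one or the other. GATAD2A and GATAD2B bridge the MBD protein and CHD4. In embryonic stem cells the complex restrains pluripotency genes and is needed for differentiation, and MBD3 has been described both as a barrier to and as a helper of reprogramming.

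The data are RNA-Seq of 7 mouse libraries, 1 for each condition, so that no spread between cultures can be estimated and no test was made. OG2 MEFs, embryonic fibroblasts with a GFP transgene under the *Oct4* promoter (GOF18ΔPE), were infected with retroviruses for *Oct4*, *Sox2*, *Klf4* and *c-Myc* and cultured in conventional mES medium or in the chemically defined 5C medium. On day 15, FACS split the culture in each medium into a fraction with the reporter of pluripotency switched on (mES-Oct4GFP+ and 5C-Oct4GFP+) and one that had received the same viruses without it (mES-Oct4GFP- and 5C-Oct4GFP-), all at passage 0. 5C-Oct4GFP+ cells were also converted in naïve medium (LIF with the inhibitors CHIR99021 and PD0325901) or in primed medium (bFGF and activin A, then CHIR99021 and IWR1) and collected at passage 20. R1 ESCs-primed are primed cells, also at passage 20, made from R1, a mouse embryonic stem cell line. Passage number and medium cannot be told apart between the converted and the sorted cells. The study reported that GFP fluorescence was lost in the cells converted in primed medium. The name 5C-Oct4GFP+ (primed) therefore gives the origin of these cells and not their reporter state. Below, Oct4GFP- libraries means the sorted fractions only, so that setting them against all other libraries does not divide the libraries by reporter state.

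The libraries held between 6108252 and 11496615 expected counts. Of the pluripotency genes, *Nanog*, *Dppa5a* and *Tdgf1* were higher in both Oct4GFP+ fractions than in their Oct4GFP- counterparts, but *Pou5f1*, which encodes OCT4, was lower in the Oct4GFP+ fraction of mES medium, at 1321.12 TPM against 3640.4 TPM, and higher in that of 5C medium, at 2428.76 against 1533.95 TPM. *Sox2* was lower in the Oct4GFP+ fraction of both media, with 327.93 against 497.91 TPM and 459.32 against 679.85 TPM. Both genes were also delivered by virus, and reads of viral and endogenous copies were not separated here. The summed level of 6 naïve markers was 1241.39 TPM in mES-Oct4GFP+ cells, 800.15 TPM in their 5C counterparts and 1132.25 TPM after naïve conversion, and at most 71.59 TPM in the other libraries. The summed level of 6 primed markers was 1151.74 TPM and 967.67 TPM in the primed libraries and at most 232.82 TPM elsewhere, although *Lef1*, one of them, was highest in 5C-Oct4GFP+ (naïve) cells. Summed fibroblast markers (8 genes) reached 522.88 TPM in mES-Oct4GFP- and 253.19 TPM in 5C-Oct4GFP- cells, against 8.48 to 14.26 TPM in mES-Oct4GFP+, 5C-Oct4GFP+ and 5C-Oct4GFP+ (naïve) cells, 75.48 TPM in 5C-Oct4GFP+ (primed) cells and 213.02 TPM in R1 ESCs-primed, and *Twist2* was listed at 0 in mES-Oct4GFP+ and 5C-Oct4GFP+ (naïve) cells. Summed cell cycle genes (6 genes) were at 702.81 TPM in mES-Oct4GFP- cells and between 1636.88 and 2305.3 TPM in the others. The part of these cell mixtures in the results below was not tested. In such bulk libraries, fewer cells of a type and less RNA per cell cannot be told apart.

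Values below are TPM, RSEM's transcript abundance, a level scaled for gene length that can be compared between genes. A difference is that of log2(TPM + 1) between a pair of libraries, and a gene was counted as higher or lower where it reached 1.5-fold, 0.58 on that scale. Ratios are of TPM, with exact 95% Clopper-Pearson intervals from the reads, which cover counting error only. The 10 genes had between 136 and 8535 reads per library.

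*Chd4* (chr6:125095981-125130591 on GRCm38), which encodes the remodeling ATPase, was measured at 165.6 and 203.72 TPM in the Oct4GFP+ and Oct4GFP- fractions of mES medium, 193.22 and 270.58 TPM in the same fractions of 5C medium, 225.1 and 243.19 TPM in the naïve and primed converted lines, and 277.73 TPM in R1 ESCs-primed. R1 ESCs-primed stood highest and mES-Oct4GFP+ cells lowest, 1.68 times apart, and R1 ESCs-primed and 5C-Oct4GFP- cells could not be separated by counting error (ratio 1.03, 0.99 to 1.06).

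The methyl-CpG-binding subunits behaved differently from each other. *Mbd2* (chr18:70568189-70626131) stood at 32.62 TPM in the Oct4GFP+ and 107.44 TPM in the Oct4GFP- fraction of mES medium, 33.76 and 83.7 TPM in those of 5C medium, 25.82 TPM after naïve and 22.39 TPM after primed conversion, and 27.76 TPM in R1 ESCs-primed. Both Oct4GFP- libraries were above the other 5, and this range of 4.8 times was the widest among the 10 genes. The 5 lower libraries formed a row in which no neighbours differed beyond counting error, while mES-Oct4GFP- exceeded 5C-Oct4GFP- cells (ratio 1.28, 1.13 to 1.46).

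*Mbd3* (chr10:80392539-80399550), the subunit of the alternative NuRD complex, was at 227.35 and 177.14 TPM in the Oct4GFP+ and Oct4GFP- fractions of mES medium, 250.71 and 202.71 TPM in the same fractions of 5C medium, 285.15 and 188.29 TPM in the naïve and primed converted lines, and 228.48 TPM in R1 ESCs-primed. 5C-Oct4GFP+ (naïve) cells were highest, and mES-Oct4GFP- cells, the lowest, were not separated from 5C-Oct4GFP+ (primed) cells (ratio 1.06, 0.98 to 1.15). *Mbd3* was above *Mbd2* in all 7 libraries.

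The 3 MTA scaffolds, which recruit the deacetylases, each had a pattern of its own. *Mta1* (chr12:113098278-113137206) was measured at 73.61 TPM in the Oct4GFP+ and 160.08 TPM in the Oct4GFP- fraction of mES medium, 138.81 and 205.87 TPM in those of 5C medium, 56.72 TPM after naïve and 130.87 TPM after primed conversion, and 125.3 TPM in R1 ESCs-primed. The mES-Oct4GFP+ and 5C-Oct4GFP+ (naïve) libraries, in which the naïve markers were highest, were the lowest for *Mta1*, and the next library above them, R1 ESCs-primed, was 1.7 times higher (1.55 to 1.88).

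*Mta3* (chr17:83706163-83821516) was at 114.74 and 129.8 TPM in the Oct4GFP+ and Oct4GFP- fractions of mES medium, 283.76 and 100.49 TPM in the same fractions of 5C medium, 119.49 and 71.47 TPM in the naïve and primed converted lines, and 70.58 TPM in R1 ESCs-primed. 5C-Oct4GFP+ cells stood alone, 2.19 times (2.03 to 2.36) above mES-Oct4GFP- cells, the next in order, and the primed libraries were the lowest and could not be told from each other (ratio 1.01, 0.9 to 1.14). *Mta2* (chr19:8941875-8952303) stayed between 110.97 TPM (mES-Oct4GFP-) and 151.54 TPM (mES-Oct4GFP+), a range of 1.37 times, and no neighbours among its 5 highest libraries differed beyond counting error.

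Of the deacetylases, *Hdac1* (chr4:129516104-129542713) was at 449.32 TPM in the Oct4GFP+ and 170.38 TPM in the Oct4GFP- fraction of mES medium, 265.3 and 194.39 TPM in those of 5C medium, 448.1 TPM after naïve and 315.84 TPM after primed conversion, and 327.93 TPM in R1 ESCs-primed. Both Oct4GFP- libraries were at the bottom, and mES-Oct4GFP+ and 5C-Oct4GFP+ (naïve) cells shared the top (ratio 1.0, 0.96 to 1.05). *Hdac2* (chr10:36974544-37001889) ranged from 237.86 TPM (mES-Oct4GFP-) to 317.11 TPM (mES-Oct4GFP+), 1.33 times, the narrowest range of the 10 genes. *Hdac1* values carry a reservation, since its estimated count was not whole in any of the 7 libraries and 34.8% of its 31-base words also occur in the transcript of *Gm10093*. That copy was listed at 40.5 and 14.35 TPM in the Oct4GFP+ and Oct4GFP- fractions of mES medium, 16.28 and 10.5 TPM in the same fractions of 5C medium, 50.19 and 50.2 TPM in the naïve and primed converted lines, and 50.43 TPM in R1 ESCs-primed, and adding it to *Hdac1* moved none of its differences below across 1.5-fold.

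The bridging subunits and *Mbd2* had the lowest medians over the libraries, at 66.22 TPM for *Gatad2a*, 37.64 TPM for *Gatad2b* and 32.62 TPM for *Mbd2*, against 114.74 TPM for *Mta3*, the next in order. *Gatad2a* (chr8:69907076-69996384) ranged from 48.33 TPM (mES-Oct4GFP-) to 83.79 TPM (5C-Oct4GFP+), and *Gatad2b* (chr3:90293178-90363407) from 25.76 TPM in 5C-Oct4GFP+ (naïve) to 49.21 TPM in 5C-Oct4GFP- cells. *Gatad2a* was lowest in both Oct4GFP- libraries, whereas *Gatad2b* was highest in 1 of them. The level of *Gatad2b* carries a reservation, since it rests on 1 transcript with an effective length near 1832.5 bases. Its GENCODE M21 transcripts hold 11517 different 31-base words, and whether reads from the rest of the gene were missed was not tested.

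**Figure D1:**
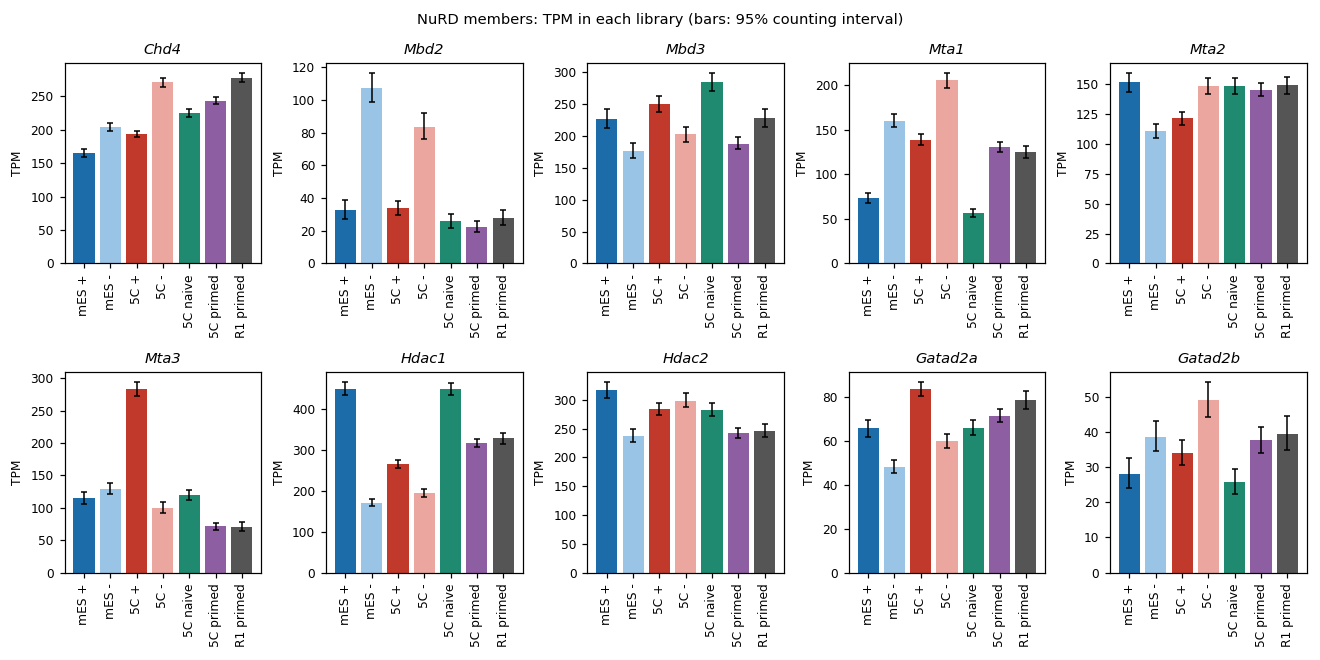
TPM (y axis of each panel, linear from 0) of the 10 NuRD genes in the 7 libraries (x axis), 1 bar per library, with error bars for the exact 95% Poisson interval of the reads. *Mbd2* is high in both Oct4GFP- libraries (107.44 and 83.7 TPM), *Mta3* is high in 5C-Oct4GFP+ cells alone (283.76 TPM), and *Mta2* and *Hdac2* are nearly level.

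The promoters of 7 of the 10 genes could be read from RefSeq on GRCm38.p6. The study followed HIF1α and the EMT factors SNAI2, TWIST and ZEB1 at the promoters of epigenetic factors. The 250 bases before each start were therefore searched on both strands for ACGTG, a form of the HIF1 core. They were also searched for the E-boxes CAGGTG and CAGCTG, which do not overlap each other. GCGTG, another form of the HIF1 core, was not searched. Printed here, from 5′ to 3′, are *Gatad2a* (chr8:69996385-69996634, minus strand) and *Chd4* (chr6:125095731-125095980, plus strand), shown for the match in capitals, and *Mta1* (chr12:113098028-113098277, plus strand), shown as the gene with the widest range of levels among the 7.
Gatad2a: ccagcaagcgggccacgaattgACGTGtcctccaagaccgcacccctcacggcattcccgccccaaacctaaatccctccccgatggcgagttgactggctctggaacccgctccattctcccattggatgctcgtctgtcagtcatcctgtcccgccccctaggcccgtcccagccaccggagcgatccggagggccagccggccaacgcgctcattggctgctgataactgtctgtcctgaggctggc
Chd4: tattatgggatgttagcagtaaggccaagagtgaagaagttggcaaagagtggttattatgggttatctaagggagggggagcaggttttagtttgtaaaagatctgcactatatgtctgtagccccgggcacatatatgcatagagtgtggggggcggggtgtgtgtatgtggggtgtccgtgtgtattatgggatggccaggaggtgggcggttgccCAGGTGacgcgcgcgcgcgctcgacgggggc
Mta1: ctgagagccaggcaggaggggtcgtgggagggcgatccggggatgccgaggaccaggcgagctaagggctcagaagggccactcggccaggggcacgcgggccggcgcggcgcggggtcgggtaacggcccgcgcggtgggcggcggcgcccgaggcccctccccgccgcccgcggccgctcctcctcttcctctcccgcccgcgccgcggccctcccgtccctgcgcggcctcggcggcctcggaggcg
ACGTG occurred in the promoter of 1 of the 7 genes and in 16.6% of all 27018 promoters, CAGGTG in 1 and 17.1%, and CAGCTG in 1, *Gatad2b*, and 12.8%. GC content ran from 54.0% to 80.8% over the 7 genes, with *Mta1* at the top and 39 CpG, and the median of 60.4% was reached or exceeded by 26.6% of all promoters. A match is a word in the sequence, and binding was not measured here.

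In mES medium the sorted fractions differed for 3 of the 10 genes. *Hdac1* was higher in the Oct4GFP+ fraction by 1.39 (ratio 2.64, 2.47 to 2.82). *Mbd2* was lower, with a difference of -1.69 (ratio 0.3, 0.25 to 0.37), and so was *Mta1*, with -1.11 (ratio 0.46, 0.42 to 0.5). Of all 16294 genes with at least 1 TPM in either library, 27.5% were higher and 38.0% lower, against 1 and 2 of the 10 NuRD genes, and 60.8% passed in either direction among genes with at least 20 TPM, a level that all 10 reach. The median difference of the 10 genes was 0.09 and that of all genes -0.15.

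In 5C medium, 2 of the 10 genes passed 1.5-fold between the fractions. *Mta3* was higher in 5C-Oct4GFP+ than in 5C-Oct4GFP- cells by 1.49 (ratio 2.82, 2.59 to 3.09), and *Mbd2* was lower, at -1.28 (ratio 0.4, 0.34 to 0.47). *Mta1* lay just under the threshold, at -0.57 (ratio 0.67, 0.63 to 0.72). Among all genes 14.7% were higher and 35.5% lower (40.7% either way at 20 TPM or more), and the medians were -0.18 for the 10 genes and -0.25 for all. The sorts in the 2 media share no library, and 7 of the 10 genes differed in the same direction in both. They were *Chd4*, *Mbd2*, *Mta1* and *Gatad2b*, lower in Oct4GFP+ cells, and *Mbd3*, *Hdac1* and *Gatad2a*, higher, of which only *Mbd2* passed 1.5-fold in both media. After median-ratio rescaling of the libraries, *Hdac1* (1.55 and 0.67) and *Gatad2a* (0.59 and 0.69) passed in both as well. *Hdac2* was then higher in both Oct4GFP+ fractions (0.57 and 0.15), where its differences in TPM were 0.41 and -0.07. How many of all genes differed in the same direction in both sorts was not counted, so that 7 of 10 is a description only. The summed fibroblast markers were lower in both Oct4GFP+ libraries too (14.26 against 522.88 TPM and 12.4 against 253.19 TPM), as given above, and whether *Mbd2* came from remaining fibroblasts was not tested.

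The media were also compared within each fraction. In the Oct4GFP- fractions none of the 10 genes reached 1.5-fold, where 19.9% of all genes were higher and 19.1% lower (32.3% either way at 20 TPM or more). *Chd4* and *Mta2* had the largest difference, 0.41 each, and the median was 0.32 against 0.03 for all genes. By sign alone, 8 of the 10 genes differed upward in 5C-Oct4GFP- cells, all by less than 1.5-fold. How many of all genes differed upward was not counted, so that 8 of 10 is a description only. In the Oct4GFP+ fraction from 5C medium, *Mta3* was higher than in that from mES medium by 1.3 (ratio 2.47, 2.27 to 2.7) and *Mta1* by 0.91 (ratio 1.89, 1.72 to 2.07), and *Hdac1* was lower, at -0.76 (ratio 0.59, 0.56 to 0.62). The shares of all genes were 21.9% higher and 24.5% lower, similar to these 2 and 1 of 10, and 36.2% either way at 20 TPM or more. *Mbd2* did not separate the media in Oct4GFP+ cells (difference 0.05, ratio 1.03, 0.83 to 1.29).

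After conversion of 5C-Oct4GFP+ cells in naïve medium, 3 of the 10 genes differed from the sorted cells. The 5C-Oct4GFP+ library also stands in the comparison of the media, so that the values are not independent. *Mta1* was lower in 5C-Oct4GFP+ (naïve) than in 5C-Oct4GFP+ cells, at -1.28 (ratio 0.41, 0.37 to 0.45), *Mta3* at -1.24 (ratio 0.42, 0.39 to 0.45), and *Hdac1* was higher by 0.75 (ratio 1.69, 1.61 to 1.77). Of all genes 18.3% were higher and 28.6% lower (36.4% either way at 20 TPM or more). Between the converted cells and mES-Oct4GFP+ cells, none of the 10 genes passed 1.5-fold. Of all genes 6.1% were higher and 18.2% lower, and at 20 TPM or more few passed (11.1% either way). *Chd4* had the largest difference, 0.44 (ratio 1.36, 1.3 to 1.42), which reached 0.61 and so passed 1.5-fold after median-ratio rescaling, while *Hdac1* (ratio 1.0, 0.95 to 1.05), *Mta2* (ratio 0.98, 0.91 to 1.05) and *Mta3* (ratio 1.04, 0.94 to 1.16) had intervals that include 1.

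In primed medium *Mta3* alone passed the threshold. It was lower than in 5C-Oct4GFP+ cells by a difference of -1.97 (ratio 0.25, 0.23 to 0.27), the largest of the 90 differences computed for the 10 genes over 9 comparisons. The shares of all genes were 24.2% higher and 24.3% lower, or 38.9% either way at 20 TPM or more. *Mta1* was close to 5C-Oct4GFP+ cells (difference -0.08, ratio 0.94, 0.89 to 1.0), and *Mbd2* lay just under the threshold (-0.57, ratio 0.66, 0.54 to 0.81) and passed it with a pseudocount of 0.1 (-0.59) or after median-ratio rescaling (-0.63).

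The converted lines were also set against each other. *Mta1* was higher in 5C-Oct4GFP+ (primed) than in 5C-Oct4GFP+ (naïve) cells by 1.19 (ratio 2.31, 2.12 to 2.52). *Mta3* was lower, at -0.73 (ratio 0.6, 0.54 to 0.66), as was *Mbd3*, at -0.6 (ratio 0.66, 0.62 to 0.71), and without the length scaling the *Mbd3* difference was -0.47 and no longer past 1.5-fold. *Hdac1*, at -0.5, passed it after median-ratio rescaling (-0.69). Among all genes 32.6% were higher and 24.4% lower (46.7% either way at 20 TPM or more). Between the primed lines from the reprogrammed cells and from R1, none of the 10 genes passed 1.5-fold. That is near the share of all genes, of which 6.73% were higher and 11.1% lower (7.17% either way at 20 TPM or more). *Mbd2* had the largest difference between the primed lines, -0.3 (ratio 0.81, 0.64 to 1.01), and *Mta1*, *Mta2*, *Mta3*, *Hdac1* and *Hdac2* each differed by at most 0.06 in size.

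**Figure D2:**
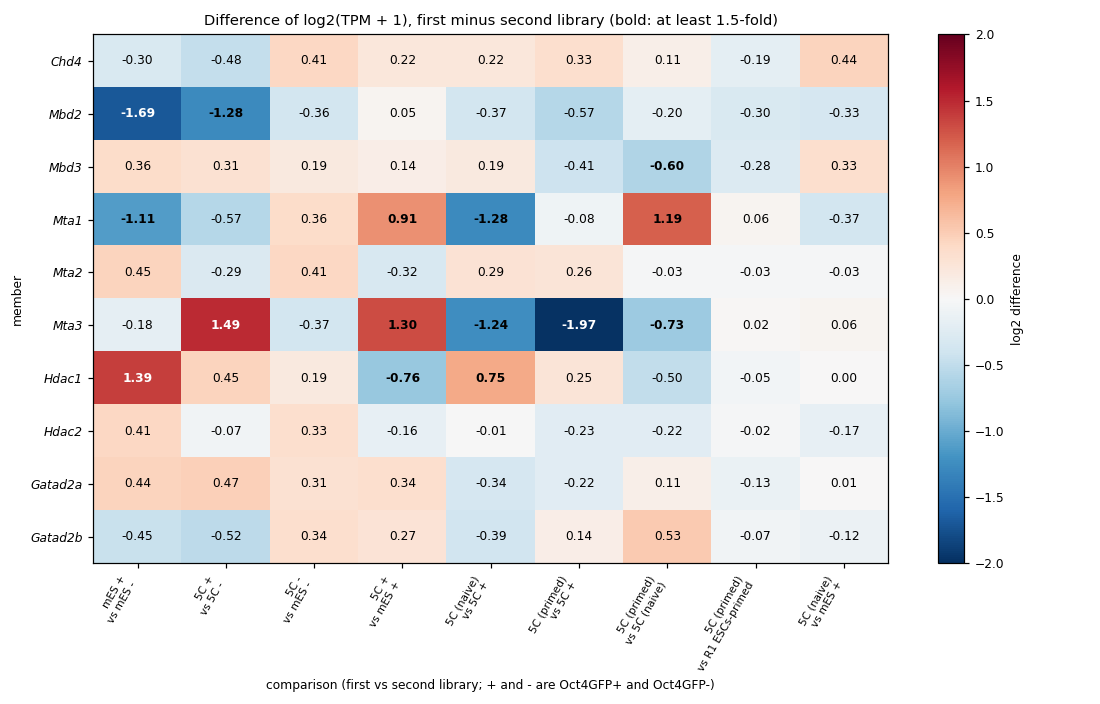
Differences of log2(TPM + 1), first minus second library, for the 10 NuRD genes (rows) in 9 comparisons (columns), coloured from blue (lower) to red (higher), with values of at least 1.5-fold in bold. Of the 90 values 15 are bold, none of them in the columns of 5C-Oct4GFP- against mES-Oct4GFP-, 5C-Oct4GFP+ (primed) against R1 ESCs-primed, and 5C-Oct4GFP+ (naïve) against mES-Oct4GFP+ cells.

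Because paralogs replace each other in the complex, their shares of summed TPM were compared within each library, where a scaling between libraries plays no part. *Mbd3* made up 62.2% of *Mbd2* and *Mbd3* together in mES-Oct4GFP- (59.7 to 64.7) and 70.8% in 5C-Oct4GFP- cells (68.4 to 73.1), and between 87.5% and 91.7% in the other 5 libraries. The intervals of both Oct4GFP- libraries lay below those of all others. *Gatad2a* showed the same division, with 55.5% (52.4 to 58.7) and 55.0% (52.2 to 57.9) of its pair in the Oct4GFP- libraries and between 65.5% and 72.0% elsewhere. Without length scaling these were 77.5% and 77.1% against 83.9% to 87.7%, a range of 10.6 in place of 17.0 percentage points. The reservation on *Gatad2b* given above applies to these shares too.

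*Hdac1* made up 58.6 and 41.7% of *Hdac1* and *Hdac2* in the Oct4GFP+ and Oct4GFP- fractions of mES medium, 48.3 and 39.4% in the same fractions of 5C medium, 61.3 and 56.6% in the naïve and primed converted lines, and 57.1% in R1 ESCs-primed. *Hdac2* was thus the more abundant of the pair in 3 libraries, 5C-Oct4GFP+ cells included, with an interval of 47.0 to 49.6% there. With *Gm10093* added to *Hdac1* its share in 5C-Oct4GFP+ cells was 49.8% (48.5 to 51.1), so that neither led beyond counting error, while both Oct4GFP- libraries stayed below 50% (43.7% and 40.7%). Among the MTA genes the leading one changed. *Mta3* held 52.2% of the 3 in 5C-Oct4GFP+ cells and between 20.5% and 36.8% elsewhere, *Mta1* led in mES-Oct4GFP- (39.9%) and 5C-Oct4GFP- cells (45.3%), and *Mta2* led in mES-Oct4GFP+ (44.6%), 5C-Oct4GFP+ (naïve) (45.7%), 5C-Oct4GFP+ (primed) (41.8%) and R1 ESCs-primed (43.2%). *Chd4* was the main remodeler throughout, with between 69.2% and 87.7% of *Chd3*, *Chd4* and *Chd5*.

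**Figure D3:**
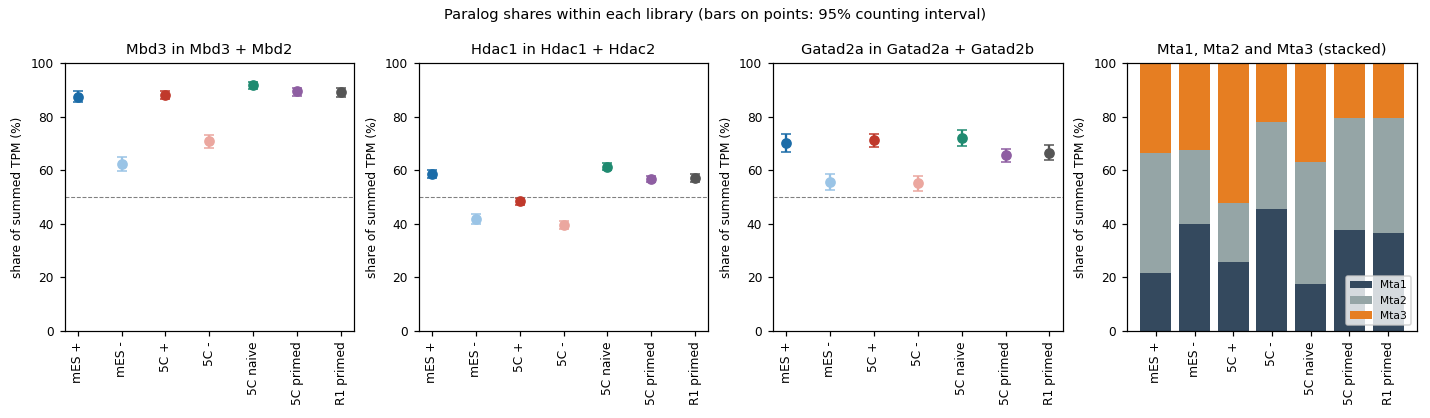
Share of summed TPM in percent (y axis) of *Mbd3*, *Hdac1* and *Gatad2a* in their pairs, with 95% counting intervals, and of the 3 MTA genes as stacked bars, for each of 7 libraries (x axis). The points for mES-Oct4GFP- and 5C-Oct4GFP- cells are the lowest in all 3 pairs, and the *Mta3* segment is widest in 5C-Oct4GFP+ cells (52.2%).

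A further 6 genes encode subunits that complete the complex. *Cdk2ap1*, a small subunit, was at 209.54 TPM in the Oct4GFP+ and 244.88 TPM in the Oct4GFP- fraction of mES medium, 326.5 and 452.75 TPM in those of 5C medium, 200.3 TPM after naïve and 799.84 TPM after primed conversion, and 802.35 TPM in R1 ESCs-primed. The primed libraries stood highest, and the difference between the converted lines was 1.99. *Rbbp4*, a histone chaperone of the complex, was highest in mES-Oct4GFP+ (374.42 TPM) and 5C-Oct4GFP+ (naïve) cells (378.14 TPM) and at most 294.56 TPM elsewhere, whereas its paralog *Rbbp7* ranged from 304.64 to 444.82 TPM and *Cdk2ap2* from 43.14 to 80.78 TPM. *Chd3*, the remodeler that can take the place of CHD4, ranged from 23.06 TPM in 5C-Oct4GFP+ to 90.48 TPM in mES-Oct4GFP- cells, and *Chd5* did not exceed 4.12 TPM.

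Among proteins that recruit or bind NuRD, *Sall4*, a zinc-finger factor of pluripotent cells, was at 34.8 TPM in mES-Oct4GFP- and 34.67 TPM in 5C-Oct4GFP- cells and between 120.47 and 170.86 TPM in the other libraries. *Sall1* was high in 5C-Oct4GFP+ (81.14 TPM), 5C-Oct4GFP+ (primed) (75.65 TPM) and R1 ESCs-primed (73.43 TPM) and between 29.54 and 36.83 TPM elsewhere. *Zmynd8* was highest in 5C-Oct4GFP+ cells (221.04 TPM), but its effective length differed by up to 1.55 times between libraries, and in CPM, counts scaled to library totals without length, the primed libraries were higher (347.38 and 360.3 against 279.93). *Zfpm1*, which encodes FOG1, stayed between 4.19 and 19.27 TPM, and *Kdm1a*, the lysine demethylase LSD1, between 132.87 and 185.85 TPM. The other class I deacetylases were *Hdac3*, of the NCoR complex, with 68.74 to 119.05 TPM, and *Hdac8*, with 6.14 to 18.35 TPM.

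**Figure D4:**
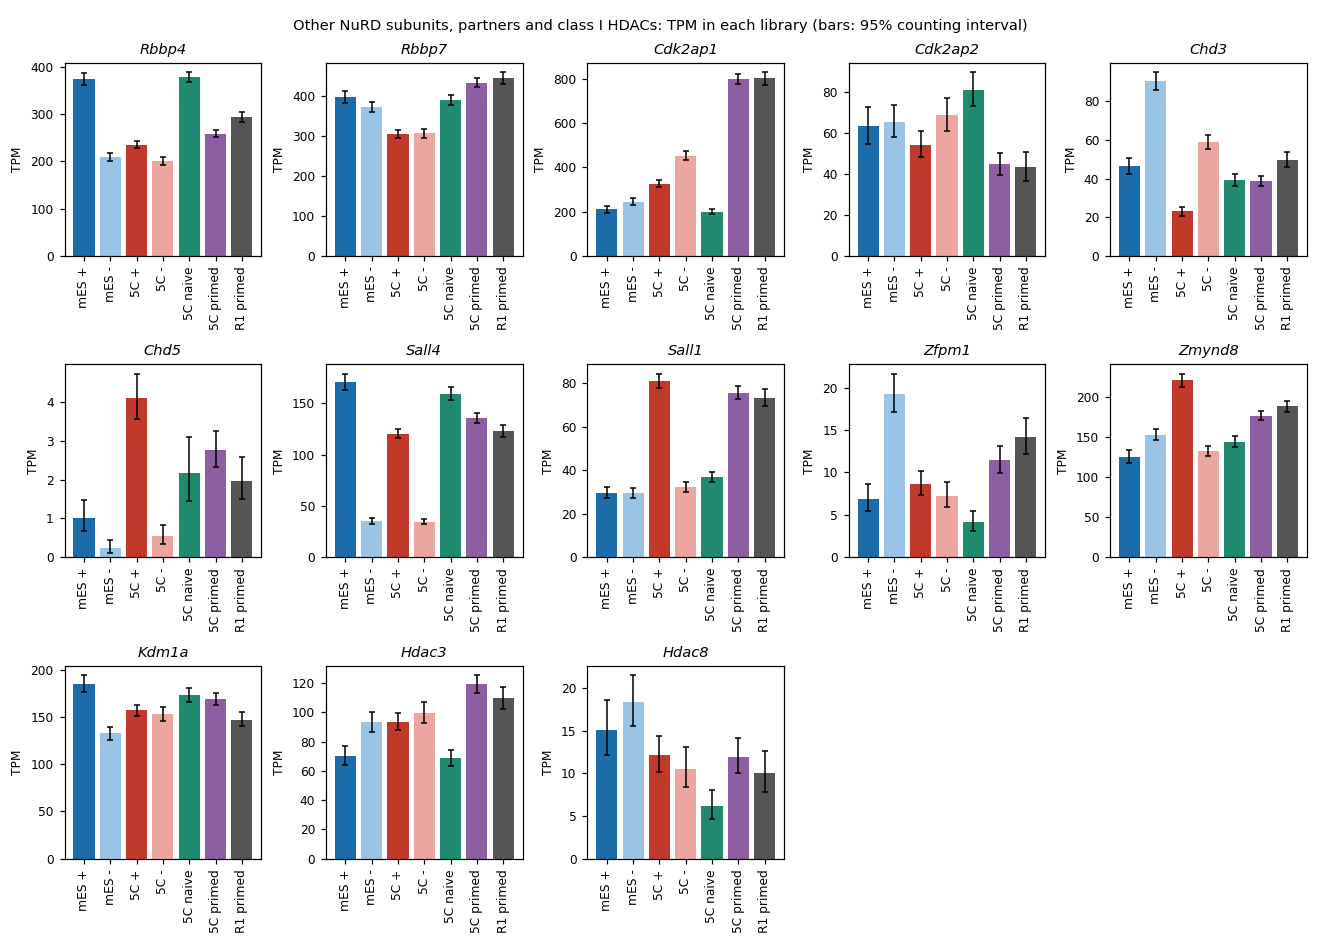
TPM (y axis of each panel, linear from 0) of 6 other NuRD subunits, 5 partners and 2 other class I deacetylases in the 7 libraries (x axis), with exact 95% Poisson intervals of the reads. *Cdk2ap1* is highest in both primed libraries (799.84 and 802.35 TPM), and *Sall4* is lowest in both Oct4GFP- libraries (34.8 and 34.67 TPM).

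These 13 genes were counted together with subunits of the Sin3, CoREST, NCoR and MiDAC complexes, which also carry class I deacetylases, and with other methyl-CpG-binding proteins and other deacetylases, 42 genes in all. Between the sorted fractions, 7 of the 42 were higher (16.7%) and 16 lower (38.1%) in mES-Oct4GFP+ cells, beside 27.5% and 38.0% of all genes, and 4 higher (9.52%) and 11 lower (26.2%) in 5C-Oct4GFP+ cells, beside 14.7% and 35.5%. With 5C in place of mES medium, 5 were higher (11.9%) and 4 lower (9.52%) in the Oct4GFP- fraction, beside 19.9% and 19.1% of all genes, and 13 higher (31%) and 5 lower (11.9%) in the Oct4GFP+ fraction, beside 21.9% and 24.5%. In 5C-Oct4GFP+ (naïve) cells 3 were higher (7.14%) and 19 lower (45.2%) than in 5C-Oct4GFP+ cells, beside 18.3% and 28.6%, and in 5C-Oct4GFP+ (primed) cells 6 were higher and 6 lower (14.3% each), beside 24.2% and 24.3%.

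The converted lines differed from each other in 24 of the 42 genes, a share of 57.1%. That was level with the 57.0% of all genes but above the 46.7% of genes with at least 20 TPM, a level that not all of the 42 reach. Of the 24, 19 were higher (45.2% of the 42) and 5 lower (11.9%) in 5C-Oct4GFP+ (primed) cells, beside 32.6% and 24.4% of all genes, with a median of 0.44 against 0.14. Between the primed lines 3 of the 42 differed, 2 higher and 1 lower in the reprogrammed cells. That share of 7.14% was below the 17.8% of all genes and level with the 7.17% of genes at 20 TPM or more. Between 5C-Oct4GFP+ (naïve) and mES-Oct4GFP+ cells 7 differed, 1 higher and 6 lower. Their share of 16.7% lay between the 24.3% of all genes and the 11.1% of genes at 20 TPM or more. The widest differences came from genes outside NuRD. *Hdac7*, a class IIa deacetylase, was at 2.39 TPM in mES-Oct4GFP+ and 0.87 TPM in 5C-Oct4GFP+ (naïve) cells, 14.54 TPM in 5C-Oct4GFP+ (primed) cells and 16.54 TPM in R1 ESCs-primed, and between 44.84 and 79.89 TPM in mES-Oct4GFP- cells and both 5C fractions. *Phf21a*, a CoREST subunit, had the same 2 libraries at the bottom (14.37 and 12.39 TPM) and reached 131.26 TPM in mES-Oct4GFP- cells, and *Trerf1*, of MiDAC, was at 1.71 and 1.32 TPM there and at 12.2 TPM or more elsewhere. *Sap18*, of the Sin3 complex, ranged from 21.78 TPM in 5C-Oct4GFP+ (naïve) cells to 109.02 TPM in 5C-Oct4GFP+ (primed) cells, but its effective length differed by up to 2.37 times between libraries.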

How the data were processed

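RNA-Seq libraries were prepared by the authors from total RNA with a TruSeq kit. The submitters' processing notes name Bowtie, RSEM and the mm10 build, with versions not given in the sources used here. The deposited expected counts are the authors' RSEM estimates of reads per Ensembl gene, not normalized. The authors' TPM values divide these by effective length and have the same sum in every library, and the deposited FPKM values scale them to the mapped fragments. The columns length and effective length were used only to check isoform changes. Each of the 7 libraries (6108252 to 11496615 counts) was its own group, taken from its labels.

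Differences of log2(TPM + 1) were computed over all genes with at least 1 TPM in either library, and genes counted at 1.5-fold. This scale understates changes of low genes. Intervals (95%) used expected counts rounded to whole numbers (exact Clopper-Pearson for ratios and shares, exact Poisson for levels). Sharing of 31-base words was counted on GENCODE M21 transcripts, which also gave coordinates (GRCm38). The members and lists were chosen with earlier results of these data known. Named were all 10 members, all other NuRD subunits, partners and class I deacetylases, and from the other lists genes with the largest difference in a comparison. The alternatives were a pseudocount of 0.1, FPKM, median-ratio rescaling, counts scaled to library totals without length, 2-fold, and a background minimum of 5 TPM or none, and, added after the data were seen, a minimum of 20 TPM and *Hdac1* with *Gm10093*. The scripts were tested on simulated data. Computation used pandas 2.3.3 and scipy 1.17.1 under Python 3.11.15, with matplotlib 3.10.9 for plots and numpy 2.4.6.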

Additional observations from a re-analysis of the deposited data

Results flagged for a closer look

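In 4 genes the direction of a difference was opposite between media or fractions with both counting intervals of the ratio off 1. With 1 library per condition the opposition itself was not tested. How many of all genes meet the same rule was not counted, so that the 4 genes are a description only. Oct4GFP+ minus Oct4GFP- was 0.45 in mES medium and -0.29 in 5C medium for *Mta2*, and -0.18 and 1.49 for *Mta3*. The 5C minus mES medium difference was 0.41 in Oct4GFP- and -0.32 in Oct4GFP+ cells for *Mta2*, -0.37 and 1.3 for *Mta3*, 0.19 and -0.76 for *Hdac1*, and 0.33 and -0.16 for *Hdac2*. Of these values *Mta3* at 1.49 and 1.3 and *Hdac1* at -0.76 passed 1.5-fold. Opposite signs with an interval that reaches 1 on one side were seen for *Hdac2* between the fractions (0.41 in mES and -0.07 in 5C medium) and for *Mbd2* between the media (-0.36 in Oct4GFP- and 0.05 in Oct4GFP+ cells). The oppositions between the fractions depended on the scaling. After median-ratio rescaling *Mta3* in mES medium was at -0.02, *Mta2* in 5C medium at -0.06 and *Hdac2* in 5C medium at 0.15. With FPKM these values were -0.05, -0.19 and 0.02, so that *Hdac2* no longer had opposite signs.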

How the results depend on the processing

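No paired analysis was possible because each condition has 1 library, and for the same reason none could be left out. Of 90 differences, 15 passed 1.5-fold, the smallest at 0.6, and the largest that did not was 0.57. With a pseudocount of 0.1, *Mbd2* was added between 5C-Oct4GFP+ (primed) and 5C-Oct4GFP+ cells, making 2 genes. With FPKM the 15 stayed past 1.5-fold in the same direction and none was added, and the median of the 10 genes between the fractions in 5C medium was -0.08. Without length scaling that median was -0.06, and *Mbd3* between the converted lines was lost at -0.47. Median-ratio rescaling (factors 0.889 to 1.129) lost none and added 7. The genes past 1.5-fold then numbered 5 between the fractions in mES medium (median 0.24), 4 in 5C medium (median 0.05, so that its sign changed), 2 between 5C-Oct4GFP+ (primed) and 5C-Oct4GFP+ cells and 1 (*Chd4*, 0.61) between 5C-Oct4GFP+ (naïve) and mES-Oct4GFP+ cells (median 0.15), and the medians were -0.05 between 5C-Oct4GFP+ (naïve) and 5C-Oct4GFP+ cells and -0.29 between the converted lines, where *Hdac1* (-0.69) was added. At 2-fold, 1 gene was left between the Oct4GFP+ fractions of the media and 1 between the converted lines. Between 5C-Oct4GFP+ (naïve) and 5C-Oct4GFP+ cells 2 were left, without *Hdac1*. Of the 42 other genes, 16 were past 2-fold between the fractions in mES medium and 9 between those in 5C medium. Between the media they numbered 2 in Oct4GFP- and 9 in Oct4GFP+ cells, and after naïve and primed conversion 9 and 6. They numbered 14 between the converted lines, 0 between the primed lines and 2 between 5C-Oct4GFP+ (naïve) and mES-Oct4GFP+ cells. Without length scaling, the ranges of paralog shares over the libraries were 10.6 percentage points for *Gatad2a*, 25.5 for *Mta2*, 25.7 for *Mta3* and 15.8 for *Chd4*, against 17.0, 23.4, 31.7 and 18.5. With *Gm10093* added, *Hdac1* ran from -0.8 to 1.4 over the 9 comparisons. Other causes of these shifts were not tested. The depth limits *Mbd2* and *Gatad2b* most, with 136 and 171 reads at the least.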

Other observations

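The genes whose levels followed *Mbd2* most closely over the 7 libraries, among 13567 compared on the log2(TPM + 1) scale, were *Arpin* (Pearson r 0.998), ENSMUSG00000054178 (r 0.998) and *Pygl* (r 0.996). The 7 points share the division of Oct4GFP- from other libraries, so that r is a description only. *Arpin*, which encodes an inhibitor of the Arp2/3 complex, was at 44.22 TPM in mES-Oct4GFP- and 26.04 TPM in 5C-Oct4GFP- cells and at most 2.86 TPM in the others. *Pygl*, the liver glycogen phosphorylase, was at 38.63 and 15.49 TPM in the same libraries and at most 1.73 TPM elsewhere.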
